A study of Mus musculus with 12 samples.

Results

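Naive mouse embryonic stem cells with and without a regulatory region of Tcf15 were compared by mRNA sequencing while they were kept in 2i medium with LIF, before any differentiation. The comparison rests on 4 of the 12 libraries of the study: the 2 delta libraries and the 2 wild-type (WT) libraries of 0 h, taken by their column names and paired by replicate number. All 47729 genes of the deposited table were considered, and 13981 of them passed the filter on low values, an FPKM (read fragments per kilobase of a gene's exons, on the scale of the library's depth) of at least 1 in at least 2 of the 12 libraries. All cells were E14Tg2a, an embryonic stem cell line of strain 129/Ola. Delta stands for delta 0.7, cells homozygous for a deletion of 674 bp at chr2:152177049-152177722 (mm10), 27.95 kb beyond the end of Tcf15 (chr2:152143561-152149097). Both genotypes grew in serum-free N2B27 with 2i and LIF. A clone number in the delta column names points to 1 clone, and the effect of the deletion and the history of that clone cannot be told apart. The libraries of 12 and 24 h, cells plated on fibronectin with Activin, bFGF and KOSR added to N2B27, entered only the filter, the estimate of the spread and the follow-up of genes that stood apart at 0 h. The labels do not say that replicates were separate cultures, so p-values measure only the spread between these libraries, which may be technical.

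2i medium holds cells in the naive state with an inhibitor of MEK, which blocks the FGF/ERK pathway, and an inhibitor of GSK3, which turns on WNT signalling; LIF acts through STAT3. Tcf15 encodes a basic helix-loop-helix transcription factor that binds DNA together with E proteins, is held back by Id proteins, and is known from the exit of stem cells from the naive state. The comparison therefore asks what the cells without the region look like before the induction starts.

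The 4 libraries held the genes of naive stem cells. All 20 genes of the naive pluripotency list lay between 9.72 and 6411 FPKM, and the 12 core pluripotency genes between 0.603 and 1111 FPKM. The recovered depth of the 4 libraries was 10987449 to 17573244 reads. The effective size behind the FPKM was 92.2% and 99.7% of these reads in WT replicates 1 and 2. It was 75.5% and 100% in delta replicates 1 and 2. A smaller effective size raises every FPKM of a library. The replicates of a genotype differed more from each other than the genotypes did within a replicate number. The SD of the log2(FPKM + 1) difference over the genes tested was 0.66 between the WT replicates and 0.83 between the delta replicates, against 0.43 for delta minus WT in the replicate 1 pair and 0.44 in the replicate 2 pair. Some kinds of RNA moved with single libraries or with the replicate number. Small and structural RNAs took 3.54% of the reads of delta replicate 1, against 0.178% and 0.224% in the WT libraries and 0.554% in delta replicate 2. That share leaves out Gm42418, labelled a long noncoding RNA, which moved alike. It held 13609 and 23232 reads in WT and 533559 and 96906 reads in delta. Ribosomal protein genes took 11.6% and 13.6% of reads in the replicate 1 libraries of WT and delta, and 7.36% and 7.61% in the replicate 2 libraries.

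Mest was the single gene that passed the test at 0 h, and it was lower in delta. It is an imprinted gene expressed from the paternal allele, encoding a protein of the alpha/beta hydrolase family, and it lies on chromosome 6 (chr6:30723547-30748465, mm10). RefSeq lists several starts for Mest, and the 250 bases before a pair of them are shown because this is the gene that differed and because CpG sites, in capitals, are where imprinted promoters carry methylation; no methylation was measured here. Both are on the plus strand of GRCm38.p6, at chr6:30733256-30733505 with 7 CpG and at chr6:30737800-30738049 with 14 CpG, against a median of 6 CpG over 32851 promoter stretches of the same length.

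Mest, first stretch: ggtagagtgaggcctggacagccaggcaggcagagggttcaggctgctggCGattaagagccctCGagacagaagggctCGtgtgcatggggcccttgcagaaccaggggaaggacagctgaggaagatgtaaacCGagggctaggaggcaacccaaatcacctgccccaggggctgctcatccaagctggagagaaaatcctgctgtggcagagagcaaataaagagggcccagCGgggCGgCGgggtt

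Mest, second stretch: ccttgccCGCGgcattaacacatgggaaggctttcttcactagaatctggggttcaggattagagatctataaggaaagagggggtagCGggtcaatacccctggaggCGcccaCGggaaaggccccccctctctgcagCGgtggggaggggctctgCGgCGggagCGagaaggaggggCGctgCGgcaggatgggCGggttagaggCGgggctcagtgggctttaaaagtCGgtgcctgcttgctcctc

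Mest stood at 8.98 and 7.28 FPKM in the WT libraries (359 and 374 reads) and at 0.989 and 0.996 FPKM in the delta libraries (35 and 69 reads). The groups did not overlap, and both delta libraries were low to the same degree. The log2(FPKM + 1) difference, delta minus WT, was -2.19 ± 0.20 (SE of the limma model, n = 2 libraries a group), with a Benjamini-Hochberg adjusted p of 0.018 over all genes tested. The difference was -2.33 in the replicate 1 pair and -2.05 in the replicate 2 pair. The gene overlaps Copg2 on the opposite strand, and the strand setting of the read counting is not stated in the labels. Copg2, a subunit of the COPI coat, stood at 18.9 and 17.0 FPKM in WT and at 15.2 and 19.9 FPKM in delta, so its groups overlapped. The other genes tested within 300 kb, Klhdc10, Tmem209 and Cep41, overlapped between genotypes too. The call rests on the shared estimate of the spread: with any single one of the 12 libraries left out, Mest kept a difference of -2.32 to -2.05 at adjusted p of 0.026 to 0.11 in the same limma fit, and it passed in 2 of the 12 fits, those without a WT library of 12 h. With the 4 libraries of 0 h alone its adjusted p was 1, and with the replicate number as a block within each time it was 0.072.

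Tcf15, the gene whose regulatory region was deleted, was lower in both pairs but did not pass the test. Its levels were 9.16 and 3.45 FPKM in WT (91 and 44 reads) and 2.16 and 1.05 FPKM in delta (19 and 18 reads). The groups did not overlap, and the WT libraries differed from each other by more than the lower of them differed from delta replicate 1. The difference was -1.40 ± 0.47 (SE, n = 2 libraries a group; limma, unadjusted p 0.016, adjusted p 1). The deletion is of a region outside the gene, so the level of Tcf15 is a readout of the deletion and not a direct check of the genotype. The neighbours within 500 kb were level. Of the 14 other genes tested there, 6 were above and 8 below 0, with a median of -0.09 and a range of -0.47 to 0.44, and all 14 overlapped between genotypes. The nearest protein-coding neighbours other than Tcf15 were Csnk2a1, which encodes part of the kinase CK2, with a difference of -0.15, and Srxn1, which repairs oxidised peroxiredoxins, at 16.0 and 14.8 FPKM in WT and 15.5 and 17.1 FPKM in delta.

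**Figure D1:**
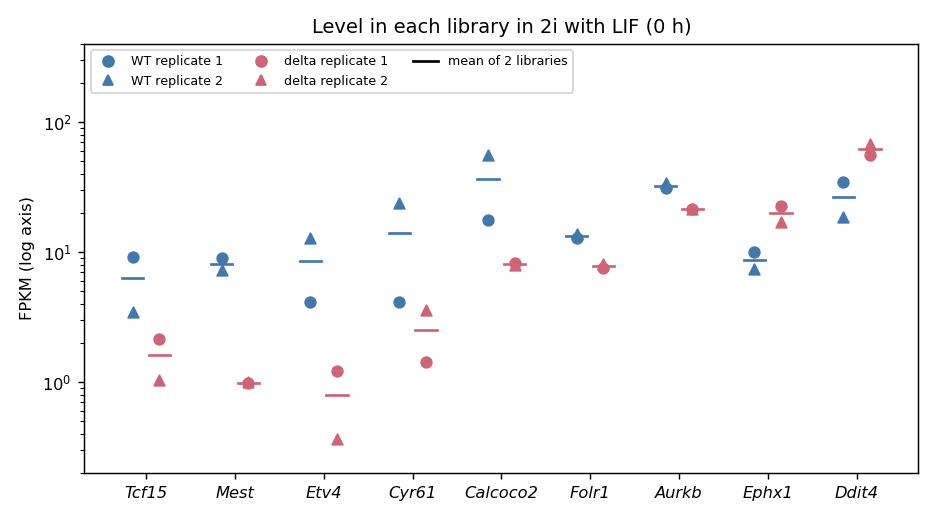
FPKM of 9 genes in each of the 4 libraries of 0 h, on a log axis, with WT in blue, delta in red, circles for replicate 1, triangles for replicate 2 and lines for the mean of 2 libraries. Mest sits at 7.28 and 8.98 in WT and at 0.989 and 0.996 in delta, while Etv4, Cyr61 and Calcoco2 differ between the WT libraries as well.

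Over the whole table, the limma fit called 1 of 13981 genes (0.00715%), 0 of them higher in delta. At an unadjusted p under 0.05, 173 genes were higher (1.24%) and 109 lower (0.780%). The fit has no replicate block, so differences between replicate numbers enter its spread. Few calls therefore do not show that the genotypes are alike. Without any test, 912 genes (6.52%) were higher and 868 (6.21%) lower in both delta libraries than in both WT libraries. The pairs had little in common beyond a few genes. The sign of the difference was the same in both pairs for 6671 genes (47.7%), and the Pearson correlation of the 2 pair differences over the 13981 genes was 0.036 (Spearman -0.027), given as a description since genes are not replicates. A difference of at least 2-fold in FPKM + 1, in the same direction in both pairs, was seen for 34 higher genes (0.243%) and 15 lower genes (0.107%), and in opposite directions for 24. Of those 49 genes, 12 were protein-coding, 6 in each direction. In 10 of the 34 and 7 of the 15, no library of 0 h held more than 10 reads. Just inside that 2-fold line were Calcoco2 at -1.02 in its weaker pair and Snord8 at 1.01; just outside were Snord65 at 0.99 and Slc11a1 at -0.95.

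**Figure D2:**
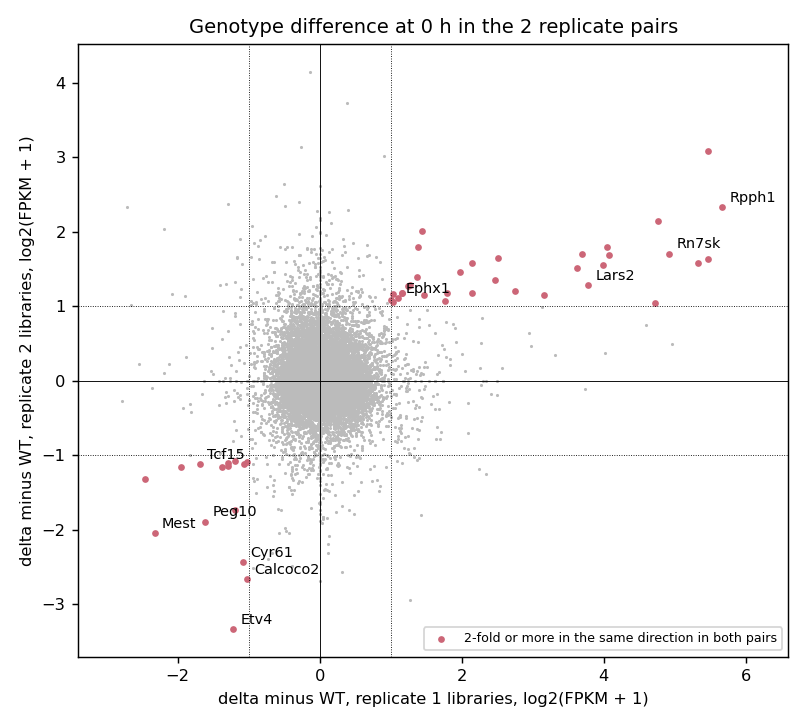
Delta minus WT in log2(FPKM + 1) for the 13981 genes tested, replicate 1 pair on the horizontal axis and replicate 2 pair on the vertical axis, with the 49 genes at least 2-fold apart in the same direction in both pairs in red and dotted lines at 2-fold. Most genes form a round cloud, Mest (-2.33 and -2.05) and Peg10 (-1.62 and -1.89) are the 2 genes labelled near -2 in both pairs, and the highest genes reach far further in the replicate 1 pair.

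The genes named next were taken by rank among genes with libraries that do not overlap and at least 5 FPKM in the higher group, ordered by the weaker of the 2 pairs; members of gene lists were added by their unadjusted p. Apart from Mest, none passed the adjusted test, so their values are descriptions. The 6 protein-coding genes lower by 2-fold in both pairs were Mest, Tcf15, Etv4, Cyr61, Calcoco2 and Peg10. Etv4, an ETS transcription factor switched on by FGF/ERK signalling, stood at 4.17 and 12.8 FPKM in WT and at 1.22 and 0.367 FPKM in delta. Its delta libraries were both low, and the WT libraries were 3 times apart; the difference was -2.28 ± 0.42 (SE, limma adjusted p 1). Cyr61, a secreted matrix protein induced by YAP and SRF, stood at 4.16 and 23.8 FPKM in WT and 1.44 and 3.58 FPKM in delta. Calcoco2, a receptor that brings cargo to autophagosomes, stood at 17.8 and 56.0 FPKM in WT against 8.25 and 7.97 FPKM in delta. Both genes were low in both delta libraries and highest in WT replicate 2.

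Cyr61 is named Ccn1 in RefSeq, and the 250 bases before its start (minus strand, chr3:145649986-145650235, GRCm38.p6) are shown because it leads the SRF and YAP targets described further on. The capitals mark CATTCC, the reverse complement of GGAATG, letters that TEAD factors, the partners of YAP, bind; either strand of this motif occurs in 12.6% of the 32851 promoter stretches, and a match is not a measured site.

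Ccn1 (Cyr61): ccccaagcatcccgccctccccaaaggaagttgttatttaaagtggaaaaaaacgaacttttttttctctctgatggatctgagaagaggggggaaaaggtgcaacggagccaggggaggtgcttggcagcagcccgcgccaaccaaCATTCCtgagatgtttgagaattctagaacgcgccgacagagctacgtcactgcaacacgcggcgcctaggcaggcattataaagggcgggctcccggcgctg

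Other lower genes shared the shape of Calcoco2, with the highest value in WT replicate 2. Slc11a1, a metal ion transporter of phagosomes, stood at 4.64 and 12.3 FPKM in WT and 1.93 and 1.34 FPKM in delta. Ly6a, the surface protein also called Sca-1, stood at 27.8 and 93.1 FPKM in WT and 16.4 and 17.0 FPKM in delta. Pik3r3, a regulatory subunit of PI3 kinase, stood at 2.92 and 8.92 FPKM in WT and 1.47 and 0.988 FPKM in delta. In these genes the replicate 2 pair carried most of the difference: -2.51, -2.39 and -2.32, against -0.95, -0.73 and -0.67 in the replicate 1 pair. Apcdd1, a membrane inhibitor of WNT signalling, was shaped alike, at 2.86 and 9.74 FPKM in WT and 1.47 and 2.83 FPKM in delta.

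A smaller group was even across the pairs. Folr1, the folate receptor alpha, stood at 12.9 and 13.8 FPKM in WT and at 7.52 and 8.08 FPKM in delta, a difference of -0.70 ± 0.16 (SE, limma unadjusted p 0.0014, adjusted p 1) that was -0.70 in each pair. It overlaps Anapc15 on the opposite strand. Cdx2, a homeobox factor of trophectoderm and of the caudal embryo that also responds to WNT, stood at 5.54 and 8.39 FPKM in WT and 2.47 and 4.23 FPKM in delta, with -0.92 and -0.84 in the pairs. Aurkb, the mitotic kinase of the chromosomal passenger complex, stood at 31.1 and 33.9 FPKM in WT and 21.4 and 21.6 FPKM in delta, a difference of -0.57 ± 0.15 (SE, limma unadjusted p 0.0036, adjusted p 1). For all 3 genes the delta libraries lay below the lower WT library.

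On the higher side, RNAs that are not messengers led. Of the 34 genes at least 2-fold higher in both pairs, 24 were small or structural RNAs, a group with 465 of the 13981 genes tested. The group also held 5 of the 15 genes lower in this way, so it was frequent on both sides. Some of its higher members rest on very few reads, such as Gm25579 with 0 and 0 reads in WT and 1 and 2 in delta. Rpph1, the RNA of RNase P, stood at 3.40 and 3.37 FPKM in WT and at 223 and 20.9 FPKM in delta, where delta replicate 1 was more than 10 times above delta replicate 2. Rmrp, the RNA of RNase MRP, stood at 8.74 and 3.40 against 264 and 18.5 FPKM. Rn7sk, the 7SK RNA that restrains the elongation factor P-TEFb, stood at 3.28 and 3.48 against 129 and 13.6 FPKM. The rRNA-like n-R5-8s1 and Rn18s-rs5 and the microRNA locus Mir6236 had the same order, and Rn18s-rs5 alone held 376046 reads of delta replicate 1. Lars2, annotated as the gene of the mitochondrial leucyl-tRNA synthetase, had this shape too, at 57.1 and 67.1 FPKM in WT and 795 and 165 FPKM in delta. Its libraries ranked as those of Rn18s-rs5 did (421 and 575 FPKM in WT, 17002 and 1722 FPKM in delta). Whether the reads at Lars2 come from its messenger was not tested. Their model differences ran from 2.53 to 4.28 with SE of 1.11 to 1.69 and adjusted p of 1. The libraries were made from oligo-dT selected RNA, and the share of small and structural RNA in a library moved with these genes; its part in the result was not tested. At 12 h the same RNAs were lower in delta, where the library with the largest share was WT replicate 2 (1.59%).

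The histone genes that are copied with DNA replication, whose messages mostly lack a poly(A) tail, were all on one side. All 36 tested were above 0, 17 of them without overlap between genotypes (6.52% of all genes tested were higher in this way), with a median of 0.71 (1.12 in the replicate 1 pair and 0.34 in the replicate 2 pair). At 12 and 24 h the median of the same 36 genes was -0.21 and 0.03. They took 0.00836% of the reads of delta replicate 1 and 0.00232% to 0.00328% in the other 3 libraries, so each value rests on few reads, and near-identical copies can share them. As with the small RNAs, delta replicate 1 was the highest library.

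Among other messengers, Ephx1, a microsomal hydrolase of epoxides, had the steadiest difference. It stood at 10.1 and 7.44 FPKM in WT (199 and 189 reads) and 22.8 and 17.2 FPKM in delta (399 and 588 reads), a difference of 1.11 ± 0.21 (SE, limma unadjusted p 5.7e-04, adjusted p 1), with 1.10 and 1.11 in the pairs. Ddit4, which restrains mTORC1 under stress, stood at 34.7 and 18.5 FPKM in WT and 55.6 and 67.8 FPKM in delta. Cd24a, a surface glycoprotein, stood at 25.2 and 16.2 against 40.5 and 30.4 FPKM, and Fam162a, a mitochondrial protein induced in hypoxia, at 68.7 and 21.9 against 111 and 72.6 FPKM. In these 3 genes WT replicate 2 was the lowest of the 4 libraries, and the difference was larger in the replicate 2 pair.

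Gene lists of pathways and cell states are described by their counts and medians beside those of all genes tested, of which 7329 were above and 6595 below 0 with a median of 0.01. The lists were assembled with earlier results of these data known. No list member other than Mest passed the adjusted test. The naive pluripotency genes were close to level: 11 of 20 were above 0, with a median of 0.01, and 2 were lower without overlap, a share near the 6.21% of all genes tested. Those were Dppa3, which protects methylation marks in the early embryo, at 67.2 and 61.5 FPKM in WT and 26.0 and 52.8 FPKM in delta, and Tcl1, an AKT co-activator, at 75.2 and 70.5 FPKM in WT and 61.5 and 67.4 FPKM in delta. Of the 12 core pluripotency genes 5 were above 0 (median -0.06), and of the 16 formative epiblast genes 8 were (median -0.01).

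The targets of FGF/ERK signalling lay mostly below 0, although MEK was inhibited in both genotypes. Of 20 tested, 15 were below 0, with a median of -0.21 (-0.19 and -0.39 in the pairs, and 0.03 when WT replicate 2 was left out); 7 were lower and 2 higher without overlap, against 6.21% and 6.52% of all genes. At an unadjusted p under 0.05, 5 were lower and 1 higher. Besides Etv4 these were the feedback inhibitors Spred1 (8.82 and 11.7 FPKM in WT, 6.46 and 6.62 FPKM in delta) and Spry4 (2.30 and 4.25 against 1.68 and 1.03 FPKM), with Phlda1 at a difference of -0.67 and Etv1 at -0.69. Ier3, an early response gene, stood the other way at 3.67 and 2.38 FPKM in WT and 4.83 and 11.6 FPKM in delta. Spry1 was the other gene higher without overlap, at 3.06 and 1.56 FPKM in WT and 3.18 and 4.78 FPKM in delta. Spry2, Spred2 and Dusp6 overlapped between genotypes, so the feedback genes were not uniformly lower. Etv5, the close relative of Etv4 that is far more abundant in these cells, overlapped at 56.0 and 71.2 FPKM in WT and 46.1 and 70.1 FPKM in delta.

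The SRF and YAP targets, genes of the actin cytoskeleton and of cell attachment, were below 0 in 16 of 18, with a median of -0.43 (-0.51 and -0.29 in the pairs). With any 1 library of 0 h left out the median was -0.79 to -0.14, the ends being those without delta replicate 2 and without delta replicate 1. Of these, 6 were lower without overlap, against 6.21% of all genes tested: Cyr61, Actb, Tagln, Tpm1, Thbs1 and Lats2. Actb, beta actin, stood at 607 and 781 FPKM in WT and 525 and 484 FPKM in delta. Ctgf, a secreted matrix protein like Cyr61, stood at 3.62 and 12.9 FPKM in WT and 1.44 and 4.42 FPKM in delta and overlapped. The list of fibroblast and mesenchymal markers shares members with this list, among them Tagln, Tpm1 and Cnn2, so a common movement is partly built in. Tagln and Acta2 of the marker list, and Thbs1 of the SRF and YAP targets, were high in WT replicate 1 alone. Tagln stood at 7.84 FPKM there, 1.16 in WT replicate 2 and 0.281 and 0.790 in delta. Of the 18 fibroblast and mesenchymal markers tested 14 were below 0, with a median of -0.78 in the replicate 1 pair and 0.17 in the replicate 2 pair, and 9 of all 25 stayed under 1 FPKM in the 4 libraries. The summed level of the 25 was 323 and 244 FPKM in WT and 235 and 344 FPKM in delta, and the part of these markers in the result was not tested. In bulk samples, fewer cells of a type and less RNA per cell cannot be told apart.

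Of the paternally expressed imprinted genes, 10 of 14 tested were below 0 (median -0.18), and the lowest differences after that of Mest belonged to Peg10, Plagl1 and Igf2. Peg10, a gene derived from a retrotransposon and needed for the placenta, stood at 3.20 and 5.83 FPKM in WT and 0.368 and 0.837 FPKM in delta, low in both delta libraries, with a difference of -1.76 ± 0.44 (SE, limma unadjusted p 0.0031, adjusted p 1). Igf2, an insulin-like growth factor, stood at 4.16 FPKM in WT replicate 1 and at 0.376 in WT replicate 2, 0 in delta replicate 1 and 0.288 in delta replicate 2, so 1 library set its difference. Plagl1, a zinc finger transcription factor, was likewise high in 1 library, at 0.543 and 9.58 FPKM in WT and 0.171 and 0.881 FPKM in delta, and its groups overlapped. Maternally expressed imprinted genes were above 0 in 15 of 19, with a median of 0.07, but the pair medians were -0.06 and 0.22. Of the 19, 4 were above 0 and 1 below 0 in both pairs. Of the E proteins, Id and bHLH genes 8 of 13 were below 0 (median -0.06); Id1, an inhibitor of bHLH factors and a BMP target, stood at 3.57 and 3.24 FPKM in WT and 1.63 and 1.57 FPKM in delta. Among 12 genes of DNA methylation, 9 were below 0 (median -0.25, and -0.56 to -0.05 with 1 library left out), Dppa3 being the lowest.

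**Figure D3:**
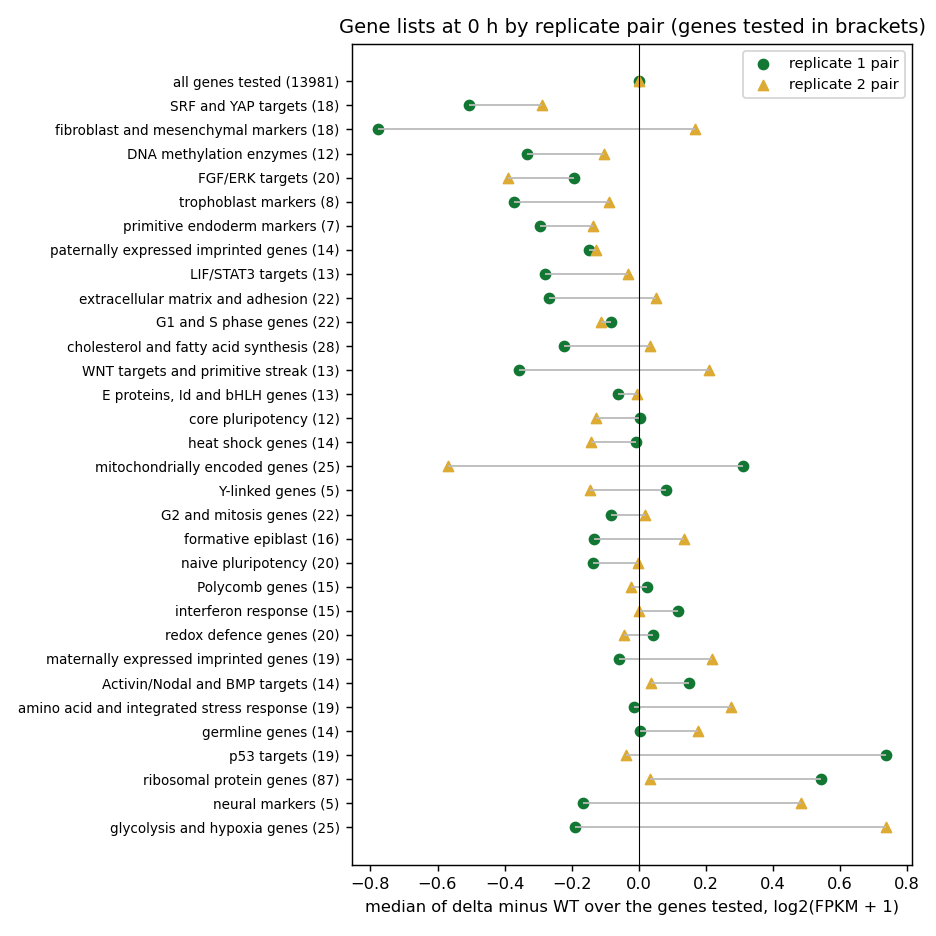
Median of delta minus WT in log2(FPKM + 1) over the genes tested of each list, with circles for the replicate 1 pair, triangles for the replicate 2 pair and the number of genes in brackets. SRF and YAP targets and FGF/ERK targets are among several lists below 0 in both pairs, DNA methylation enzymes and trophoblast markers being others. The glycolysis, p53, mitochondrial and fibroblast lists are among those with opposite signs.

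For the metabolic and stress lists the replicate pairs differed in size or in sign. Glycolysis and hypoxia genes were above 0 in 22 of 25 with a median of 0.39, but the pair medians were -0.19 and 0.74, and the median was -0.03 without WT replicate 2 and 0.94 without WT replicate 1. WT replicate 2 was the low library: Bnip3, a mitophagy receptor induced in hypoxia, stood at 47.1 and 2.17 FPKM in WT and 62.0 and 41.1 FPKM in delta, and Ldha, lactate dehydrogenase, at 738 and 167 FPKM in WT and 830 and 505 FPKM in delta. The p53 targets were above 0 in 15 of 19 (median 0.27), at 0.74 in the replicate 1 pair and -0.04 in the replicate 2 pair, delta replicate 1 being high. Eda2r, a death-domain receptor induced by p53, stood at 5.11 and 5.37 FPKM in WT and 15.9 and 6.23 FPKM in delta. Of 87 ribosomal protein genes 85 were above 0 (median 0.29; 0.54 and 0.03 in the pairs), 1 of the 87 did not overlap, and leaving out delta replicate 1 turned the median to -0.34. The 25 mitochondrially encoded genes had pair medians of 0.31 and -0.57; mitochondrial reads took 0.463% and 0.523% of the replicate 1 libraries and 2.87% and 2.38% of the replicate 2 libraries. In the cell cycle lists, 14 of 22 G2 and mitosis genes and 13 of 22 G1 and S phase genes were below 0 (medians -0.03 and -0.11). In each list 4 were lower and 1 higher without overlap, against 6.21% and 6.52% of all genes tested. Both pairs were below 0 for 5 and 10 genes of these lists, and above 0 for 4 in each.

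Markers of cells that such cultures could also hold were mostly low in the 4 libraries. Of the primitive endoderm markers, 12 of 16 stayed under 1 FPKM in every library; this held for 11 of 14 neural, 11 of 13 haematopoietic and endothelial, 12 of 14 two-cell-like and 7 of 15 trophoblast markers. Among those at 0 in all 4 libraries were Prl3d1 of trophoblast giant cells, Neurog2 of neural precursors and Cdh5 of endothelium. Of the 8 trophoblast markers tested, 3 were above 0 and 5 below. Cdx2 and Tfap2a (3.07 and 10.9 FPKM in WT, 1.72 and 2.62 FPKM in delta) were lower without overlap, against 6.21% of all genes tested. The others overlapped between genotypes, and Tfap2a was highest in WT replicate 2.

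Position along the genome showed a further difference, carried by 1 library. Along chromosome 14, a segment of 25.9 Mb (chr14:47276931-73187321, mm10) was found from running medians of 41 genes in the replicate 2 pair. That pair had a median difference of 0.54 over the 223 genes tested there, 195 of them above 0. The same values of 0 h chose the segment, so these figures and the counts without overlap below are no test of it. Values of 12 and 24 h entered the choice only through the filter. The replicate 1 pair had a median of 0.07 there. Within WT, replicate 2 was below replicate 1 by a median of -0.37 at 0 h, -0.54 at 12 h and -0.52 at 24 h over the same genes, while the delta replicates differed by 0.04, -0.03 and -0.02. The WT replicate 2 libraries were thus the low ones at all 3 times. Of the 223 genes, 33 (14.8%) were higher and 7 lower without overlap, against 6.52% and 6.21% of all genes tested; the higher ones include the named genes Rpph1 and Esco2, an acetyltransferase of cohesin, which stood at 45.3 and 21.6 FPKM in WT and 74.5 and 48.1 FPKM in delta. On chromosome 13 a run of 68 genes that holds 32 replication-dependent histone genes had medians of 0.69 and 0.30 in the pairs.

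**Figure D4:**
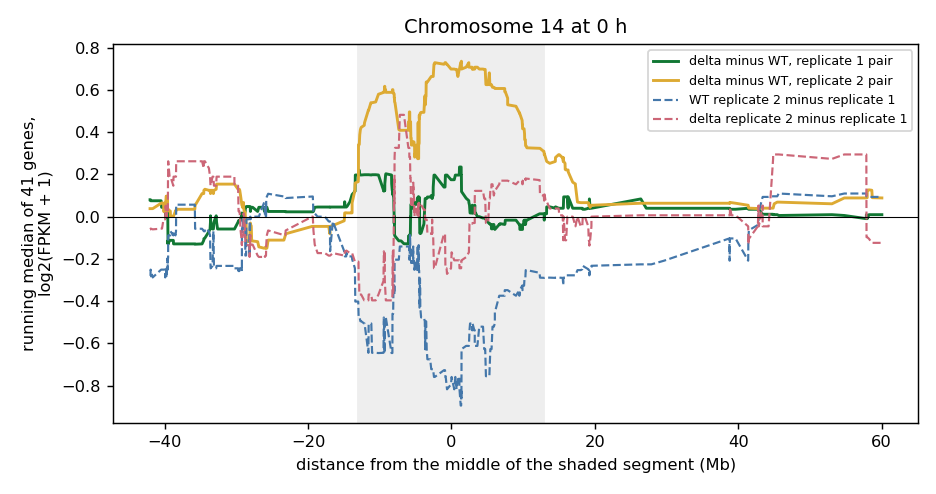
Running median of 41 neighbouring genes on chromosome 14 at 0 h, in log2(FPKM + 1), against the distance in Mb from the middle of the shaded segment, for delta minus WT in each pair (solid) and replicate 2 minus replicate 1 in each genotype (dashed). In the shaded segment, which was chosen from the replicate 2 pair, that pair lies above 0 and the WT replicates differ in the opposite direction.

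The genes that stood apart at 0 h were then followed in the 8 libraries of 12 and 24 h, which entered the choice of genes only through the filter and the shared spread. Mest was lower in delta at both times, while its level was above that of 0 h in both genotypes: 14.8 and 20.7 FPKM in WT against 1.65 and 1.84 in delta at 12 h, and 34.7 and 39.1 against 2.502 and 2.47 FPKM at 24 h. The differences were -2.76 (limma adjusted p 0.0025) and -3.44 (adjusted p 3.6e-04), the single call at 24 h (0.00715% of genes tested) and 1 of 2 at 12 h (0.0143%). The other call at 12 h was Tcf15, at 57.1 and 28.8 FPKM in WT against 1.06 and 1.04 in delta, with a difference of -4.34 (limma adjusted p 0.047); at 24 h it was at -4.06 (adjusted p 0.083). The 12 h call of Tcf15 held in 2 of the 12 fits that left out 1 library. The change of the genotype difference from 0 h passed the test for neither gene, with adjusted p of 1 for both at both times.

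Of the 14 named lower genes, 13 were below 0 at 12 h and 14 at 24 h, and 11 were below 0 in all 4 later pairs. Of the 14 named higher genes, 7 were above 0 at 12 h and 5 at 24 h, and 4 were above in all 4 later pairs. For all genes tested, 52.6% were above 0 at 12 h, 51.0% at 24 h and 14.7% in all 4 pairs; 47.1% were below 0 at 12 h, 48.6% at 24 h and 12.6% in all 4 pairs. Of the 912 genes higher without overlap at 0 h, 74.3% were above 0 at 12 h and 29.3% in all 4 later pairs; of the 868 lower ones, 69.2% were below 0 at 12 h and 27.2% in all 4 later pairs. Calcoco2 was at -0.73 and -1.86 and Slc11a1 at -1.38 and -1.28 at 12 and 24 h, whereas Folr1 was at 0.05 and -0.23. Ephx1 was at 0.88 and 0.51. The structural RNAs turned: Rpph1 was at -0.90 and -1.61, and Lars2 at -1.32 and -1.65. None of these genes other than Mest and Tcf15 passed at a later time.

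**Figure D5:**
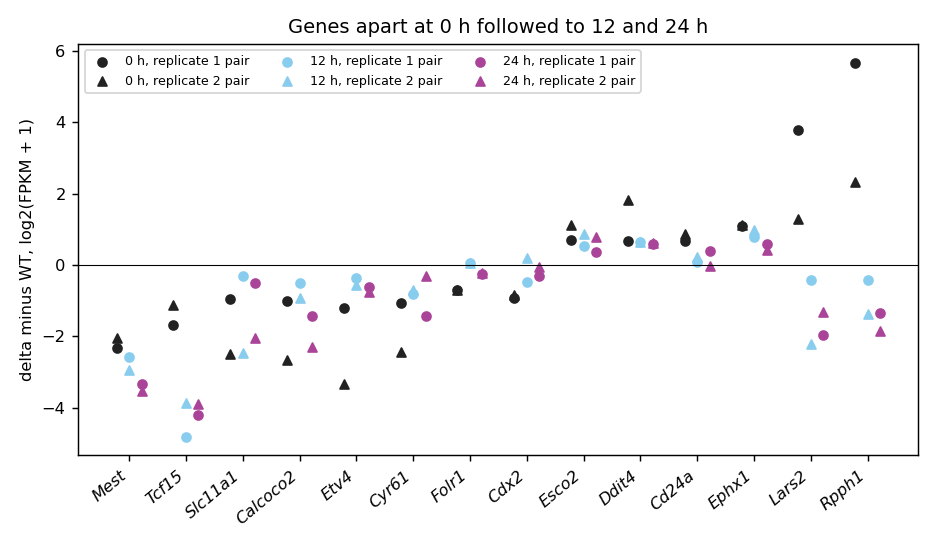
Delta minus WT in log2(FPKM + 1) for 14 genes at 0 h (black), 12 h (light blue) and 24 h (purple), with circles for the replicate 1 pair and triangles for the replicate 2 pair. Mest and Tcf15 lie below 0 in every pair, Ephx1, Esco2 and Ddit4 above 0 in every pair, and Lars2 and Rpph1 change side after 0 h.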

How the data were processed

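Per the labels' protocols, oligo-dT beads selected mRNA from 1 µg of RNA extracted with an RNeasy Plus kit, and the NEBNext UltraII kit was used for the libraries. The authors deposited FPKM values of 47729 genes with Ensembl identifiers and symbols in 12 libraries. The submitters' processing notes name mm10 as the build and, as tools without stated roles, edgeR 3.16.5, featureCounts 1.5.1, STAR 2.5.2b and cutadapt. The smallest FPKM steps of a gene correspond to 1 read; with gene lengths from GENCODE M21, or from the steps for 5693 genes, whole reads within 0.01 were recovered for 100% of the 28657 genes above 0 in any library. These reads give the depth, 9742233 to 17573244 a library, and serve for shares and for 1 alternative; 1 read per kilobase was worth 0.0569 to 0.111 FPKM.

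Log2(FPKM + 1) values of the 13981 genes with at least 1 FPKM in at least 2 libraries entered 1 limma 3.58.1 model (R 4.3.3) with 6 group means and a mean-variance trend. Genes were called at a two-sided p under 0.05 after Benjamini-Hochberg adjustment. The pseudocount of 1 understates changes of low genes. The fit was run on simulated data in which libraries vary independently, with no shift shared by a replicate number. The real libraries do share such a shift, so that run does not show how the fit performs on them. Named genes were Tcf15, called genes, up to 14 genes in each direction without overlap between genotypes, with at least 5 FPKM in the higher group and no predicted-gene symbol, ranked by the smaller pair difference, up to 4 members of each list by unadjusted p, and genes within 500 kb of the deleted region. Members of the 33 gene lists were chosen with earlier results of these data known. Etv1, Etv5, Phlda1, Ldha, Acta2, Thbs1, Lats2, Tpm1 and the neighbours of Mest were named after their values were seen. One gene taken by the rule for named genes is not reported here.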

Additional observations from a re-analysis of the deposited data

How the results depend on the processing

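The sign of the Mest difference at 0 h held under every alternative run at 0 h, but its call did not. With the 4 libraries of 0 h alone, 0 genes were called in total and 0 lower (Mest -2.19, adjusted p 1). With a replicate block within each time, 0 were called in total and 0 lower (Mest adjusted p 0.072). With replicate 1 of both genotypes left out at 0 h, chosen after the data were seen, 3 genes were called, 1 higher and 2 lower, and Mest was not among them (-2.05, adjusted p 0.082); this fit compares 1 library with 1, assumed to vary like the other groups, and its calls have no replicate behind them. With no filter on low values 6 genes were called, 3 higher and 3 lower. A replicate block over all times gave 1 call (Mest adjusted p 0.027), and voom weights on recovered reads 1 call (Mest -3.01, adjusted p 0.024). Deviations of same-numbered WT and delta libraries correlated at 0.70 at 0 h, 0.28 at 12 h and 0.37 at 24 h; the labels do not say that a number marks a shared culture, so the main values use no block. Leaving out 1 library at a time gave 0 to 1 calls, a Mest difference of -2.32 to -2.05 and a Tcf15 difference of -1.999 to -0.81. No sign changed for 57 other named genes over 1300 combinations of gene and refit. For genes picked because their libraries do not overlap, leaving out 1 library cannot change the sign. Leaving out a library of 12 or 24 h does not alter a difference at 0 h. The count is therefore no test of these signs. Over 31 gene lists, the median moved by more than the spread between pairs in 72 recomputations and stayed within it in 114. With 1 library of 0 h left out, medians that took both signs included naive pluripotency (-0.24 to 0.19), E proteins, Id and bHLH genes (-0.32 to 0.20), maternally expressed imprinted genes (-0.01 to 0.25) and mitochondrially encoded genes (-1.33 to 1.197).

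The count of genes at least 2-fold apart in both pairs depended on the pseudocount: at 0.1 it was 171 (93 higher, 78 lower, 126 in opposite directions), and at 0.5 it was 80 (29 lower, 59 in opposite directions). Among protein-coding genes only it was 12 (6 higher, 6 lower, 1 in opposite directions). Low read numbers limit it, as 1 read per kilobase is worth 0.0569 to 0.111 FPKM.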
